A study of Mus musculus with 13 samples.

Results

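The genes examined here carry or modulate signals of the transforming growth factor beta (TGF-β) and bone morphogenetic protein (BMP) family, and they were chosen by name. The list holds 51 gene symbols out of 21100 in the deposited table, and all 51 had a value in every tumor. Of these, 50 passed the filter on low counts and were tested. Chrdl1, which encodes an extracellular BMP antagonist, did not pass: counts ran from 0 to 16 across GEM-BCC tumors and from 2 to 25 across those of Tp-BCC.

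The series compared a genetically engineered mouse model of basal cell carcinoma (GEM-BCC) with a transplantable model derived from it (Tp-BCC), using poly(A) RNA sequencing of 13 bulk tumors. The 9 GEM-BCC tumors (GEM1 to GEM9) grew intradermally on 7 female mice of genotype Ptch1+/- K14-CreERT2 p53fl/fl (the sample labels write K14-CreER2) that had received 3 injections of 300 µg tamoxifen and 4 Gy of X-rays. In these mice the K14 promoter limits Cre to K14-expressing epithelium, so that p53 is lost there, while 1 Ptch1 allele is missing throughout. A single animal bore both GEM2 and GEM3, and another both GEM7 and GEM8. The 4 Tp-BCC tumors (TP1 to TP4) grew in 4 female Ptch1+/- p53fl/fl hosts without the Cre transgene, after subcutaneous inoculation of 2000000 passaged BCC cells that all trace back to 1 GEM-BCC tumor. Both models therefore carried the Ptch1 and p53 alleles, and differed in site, passage history and origin from 1 tumor. The tumor-bearing animals also differed in the Cre transgene, and tamoxifen and X-rays are given for the GEM-BCC mice only. All GEM-BCC libraries were in batch 1 and all Tp-BCC libraries in batch 2, so model and batch cannot be told apart. The p-values below measure the spread between these tumors, and the Tp-BCC tumors sample 1 line.

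TGF-β family ligands are secreted dimers that bind paired type I and type II serine/threonine kinase receptors. Activated receptors phosphorylate receptor Smads, with TGF-β and activins acting mainly through Smad2 and Smad3 and BMPs mainly through Smad1, Smad5 and Smad9, and these enter the nucleus with the common partner Smad4. In skin, BMPs and their antagonists regulate hair follicle growth and keratinocyte differentiation, whereas TGF-β restrains keratinocyte proliferation and acts on fibroblasts and immune cells.

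The promoters of 3 members are shown here because the results turn on them: Bmp4, the ligand with the largest increase in Tp-BCC, Bmpr1b, the receptor with the largest decrease, and Id2, a Smad target gene with a lower level in Tp-BCC. Each is the 250 bases upstream of the transcription start in RefSeq (GRCm38.p6), given 5′ to 3′ on the gene's own strand, which is the minus strand for all 3. Capitals mark matches, on either strand, to GTCT (the Smad box), CAGA (the CAGA box) and GGCGCC (a GC-rich element used by BMP Smads). A CAGAC string matches both GTCT (read on the other strand) and CAGA. The intervals are chr14:46390670-46390919 for Bmp4, chr3:141982265-141982514 for Bmpr1b (the first of 3 promoters listed) and chr12:25096093-25096342 for Id2.

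Bmp4: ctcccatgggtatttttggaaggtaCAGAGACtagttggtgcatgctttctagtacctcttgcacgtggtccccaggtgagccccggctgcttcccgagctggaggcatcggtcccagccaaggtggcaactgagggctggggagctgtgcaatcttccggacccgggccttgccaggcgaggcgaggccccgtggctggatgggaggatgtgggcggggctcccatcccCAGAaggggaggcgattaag
Bmpr1b: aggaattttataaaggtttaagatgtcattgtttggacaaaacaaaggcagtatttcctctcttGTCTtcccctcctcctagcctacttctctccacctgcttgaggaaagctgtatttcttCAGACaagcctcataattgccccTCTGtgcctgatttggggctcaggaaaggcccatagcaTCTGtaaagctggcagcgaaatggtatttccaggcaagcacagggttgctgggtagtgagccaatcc
Id2: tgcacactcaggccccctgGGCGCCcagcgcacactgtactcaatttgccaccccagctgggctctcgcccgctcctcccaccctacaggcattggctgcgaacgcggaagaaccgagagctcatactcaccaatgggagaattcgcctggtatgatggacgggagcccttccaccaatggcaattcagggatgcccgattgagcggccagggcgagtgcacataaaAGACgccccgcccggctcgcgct

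Bmp4 held 1 GTCT and 2 CAGA matches, Bmpr1b held 2 GTCT and 3 CAGA matches, and Id2 held 1 GTCT and 1 GGCGCC match. Such short strings are frequent. GTCT was present in 82.9% and CAGA in 93.3% of the 32851 mouse promoters of the same length, against 30 of 37 members with a listed promoter (81.1%) for each. GGCGCC was present in 9.59% of all promoters and in 10 of 37 members (27%). The shares over all promoters count every listed promoter of a gene, and those of the members only the first. They were not matched for GC content, which ran from 43.2% (Inhba) to 87.6% (Ski) among the member promoters. These are matches of letters, and no binding was measured. No promoter was listed for 14 members, among them Nog, Sostdc1, Skil and Smad4.

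Bmp4 rose by 3.04 on the log2 scale in Tp-BCC, and the BMP receptor Bmpr1b was nearly undetected. The BMP antagonist genes Nog and Sostdc1 were also higher, whereas the antagonist gene Chrd and the ligand gene Bmp6 were lower. The calls of Nog, Sostdc1, Chrd and Bmp6 were each lost with some single tumors left out. The common Smad, Smad4, and the secreted glycoprotein gene Fstl1 fell without overlap between the models, as did the repressor gene Skil, the BMP Smad Smad5 and the target Id2. Skil and Smad5 lost their calls with TP2 left out, and Smad5 and Id2 with TP2 and TP4 left out. In all, 11 of the 50 tested members passed the test (edgeR quasi-likelihood test, Benjamini-Hochberg adjusted p under 0.05), a share of 22% against 19.4% of all 14390 genes tested. Of these, 3 were higher in Tp-BCC (6%, against 11.1% of all genes) and 8 were lower (16%, against 8.35%). Bmp4 and Bmpr1b also had an absolute log2 fold change above 2, which is 4% of members against 5.57% of all genes. The tumors of the models did not overlap for 9 members (18%, against 9.95%), with all Tp-BCC tumors above all GEM-BCC tumors for 3 (6%, against 5.5%) and below for 6 (12%, against 4.45%). The median log2 fold change was −0.34 over the members and −0.03 over all genes tested. Changes in these bulk tumors cannot separate fewer cells of a type from less RNA per cell.

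**Figure D1:**
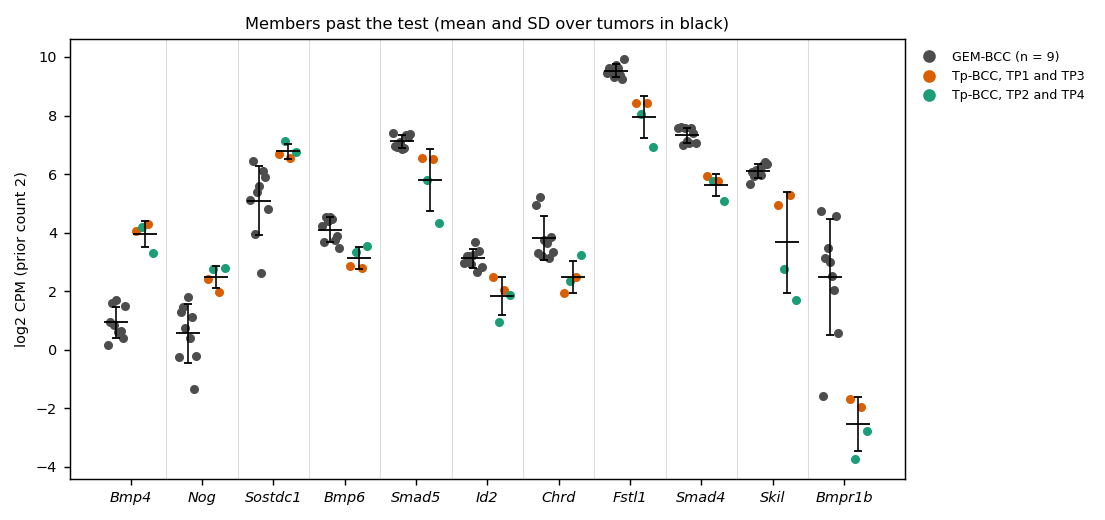
Level (log2 CPM, y axis) of the 11 members past the test in each tumor, ordered by fold change from Bmp4 (3.04) to Bmpr1b (−6.25). Points are tumors, gray for GEM-BCC, orange for TP1 and TP3 and green for TP2 and TP4, with the mean and SD of each model in black. The models are separate for 9 genes and overlap for Bmp6 and Chrd. TP2 and TP4 lie below TP1 and TP3 for Skil, Smad5, Fstl1, Id2 and Bmpr1b.

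Libraries were deeper in GEM-BCC (28075317 to 32629102 expected counts) than in Tp-BCC (15388027 to 17494912). All 8 markers of BCC tissue, among them the basal keratins Krt14 and Krt5 and the Hedgehog target Gli1, were well expressed in every tumor, and 0 of 8 passed the edgeR test (3 of 8 had an unadjusted p under 0.05). Other markers moved with the model or with single tumors. The summed CPM of 6 adipocyte markers was 13.5 to 118 in Tp-BCC and 0.791 to 5.26 in GEM-BCC, that of 8 endothelial markers was 342 to 405 against 93.6 to 254, and that of 12 fibroblast markers was 18100 to 32100 against 14100 to 53400. Among 6 tested markers of differentiated epidermis all had a lower fitted level in Tp-BCC (median log2 fold change −2.34), and Krt10, a keratin of suprabasal cells, fell by 2.80 (SE 0.68, adjusted p = 0.0104, edgeR). Their summed CPM was 42.2 to 54.1 in Tp-BCC, within the 27.2 to 294 of GEM-BCC. The sum of 6 skeletal muscle markers reached 126 in TP4, against at most 10.1 in any other tumor. The part of these cells in the results on members was not tested.

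The Tp-BCC libraries also fell into pairs. TP2 and TP4 differed from TP1 and TP3 in a way that followed the GC content of transcripts. Across genes, Spearman's rho of log2 CPM with GC content was 0.301 in TP2 and 0.351 in TP4, against 0.00822 in TP1, −0.0314 in TP3 and 0.0321 to 0.174 in GEM-BCC tumors. Values below are therefore given with both pairs in view: with TP2 and TP4 left out, 7 of 50 members passed, beside 10.4% of all genes, and with TP1 and TP3 left out, 24 of 50 passed, beside 42.9%. Bmp4, Bmpr1b, Fstl1, Smad4 and Skil passed with either pair left out. With each tumor's trend on GC content removed, 14 members passed (28%, against 28.6% of all genes), 10 of them among the 11 above.

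**Figure D2:**
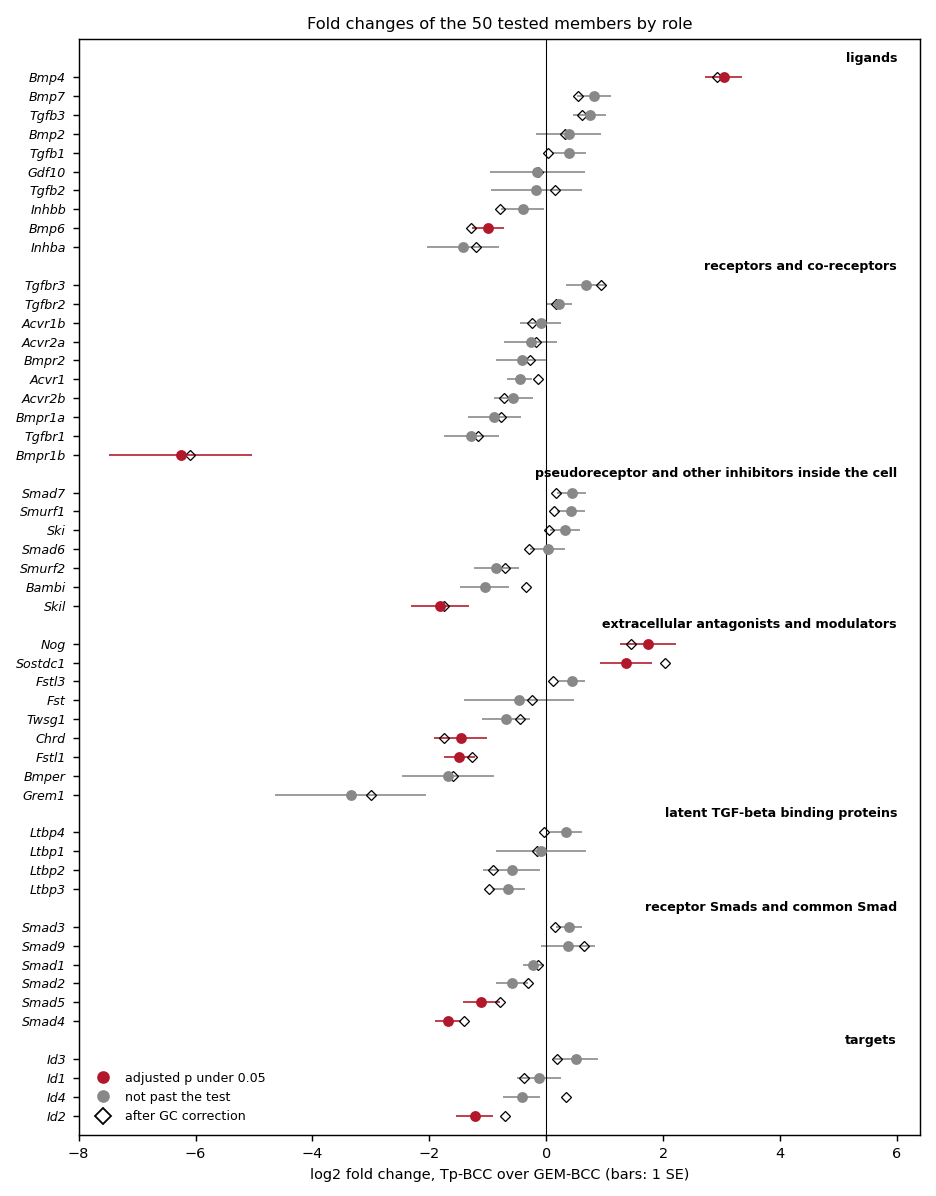
Log2 fold change of Tp-BCC over GEM-BCC (x axis) for the 50 tested members, grouped by role. Filled circles with bars are the fold change and 1 SE, red where the adjusted p was under 0.05, and open diamonds are the fold change after correction for GC content, which moved Id2 from −1.22 to −0.71 and Sostdc1 from 1.36 to 2.03.

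Of the 10 ligand genes, 1 rose, 1 fell and 8 did not pass the test. Bmp4, which encodes a BMP made in skin mainly by mesenchymal cells, had a log2 CPM (CPM, counts scaled to library size, with a prior count of 2) of 4.07, 4.19, 4.29 and 3.31 in TP1, TP2, TP3 and TP4. In GEM-BCC tumors it ranged from 0.17 to 1.69, with a median of 0.84. Every Tp-BCC tumor thus lay more than 1 log2 unit above every GEM-BCC tumor. Mean CPM was 16.0 ± 4.29 (SD, n = 4) against 1.95 ± 0.772 (SD, n = 9), and the log2 fold change was 3.04 (SE 0.32, adjusted p = 1.39e-05, edgeR).

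Bmp6, a BMP expressed in epidermis among other tissues, moved in the opposite direction. Its log2 CPM was 2.87, 3.32, 2.77 and 3.54 in TP1 to TP4, and ranged from 3.46 to 4.53 (median 4.22) in GEM-BCC. TP4 lay within the GEM-BCC range, just above GEM9. The log2 fold change was −0.999 (SE 0.28, adjusted p = 0.02), and the call was lost without TP1 (adjusted p = 0.0579, edgeR) or TP3 (0.0517), and with both left out (0.0938). Per kilobase of transcript, Bmp4 was below Bmp6 in GEM-BCC (mean CPM per kb 1.06 against 8.46) and above it in Tp-BCC (8.68 against 4.24).

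The ligands of highest level per kb were the same 4 genes in both models, and the orders given per kb, which use the median transcript length of each gene, held with the longest transcript in its place. Tgfb3 led with a mean CPM per kb of 86.5 in GEM-BCC and 144.5 in Tp-BCC, and it was followed by Tgfb1 (49.1 and 64.0). Inhbb, which encodes an activin subunit, was above Bmp7 in GEM-BCC (39.3 against 25.2) and below it in Tp-BCC (29.7 against 44.3). None of these 4 passed the test. Their log2 CPM overlapped between the models: Bmp7, a BMP of epithelia, was at 6.88, 7.72, 6.91 and 7.65 in TP1 to TP4 and at 5.81 to 7.16 (median 6.22) in GEM-BCC, a log2 difference of 0.82 (SE 0.29, adjusted p = 0.0567). For Inhba, the other activin subunit gene, the difference was −1.43 on the log2 scale (SE 0.62, adjusted p = 0.116), with −1.12 to 1.53 log2 CPM in Tp-BCC and 0.17 to 2.82 in GEM-BCC. Bmp2 and the BMP-related ligand gene Gdf10 were at low level, with median log2 CPM in GEM-BCC of −0.13 and −1.35. Tgfb2, a TGF-β isoform, varied most among GEM-BCC tumors within its role, from 1.21 in GEM8 to 5.94 in GEM2, and was at 3.99, 3.95, 4.00 and 2.52 in TP1 to TP4.

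Among the 10 receptors and co-receptors, 1 passed the test. Bmpr1b, a type I BMP receptor, had 4, 0, 3 and 1 counts in TP1, TP2, TP3 and TP4. GEM-BCC tumors held from 7 counts (GEM2) to 800 (GEM1), or a log2 CPM of −1.60 to 4.72 with a median of 2.99. The models did not overlap, but GEM2 (7 counts, log2 CPM −1.60) lay barely above TP1 (4 counts in a shallower library, log2 CPM −1.69). The fitted log2 fold change of −6.25 (SE 1.22, adjusted p = 0.00276, edgeR) rests on these few Tp-BCC counts, so its size is imprecise. It passed with each tumor left out in turn, with adjusted p from 0.000645 to 0.0133.

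The BMP receptor genes Bmpr1a and Bmpr2, the TGF-β receptor gene Tgfbr1 and the activin receptor gene Acvr2a split the Tp-BCC tumors into TP1 and TP3, at the level of GEM-BCC or close to it, and TP2 and TP4, lower. Bmpr1a was at a log2 CPM of 7.28 and 7.22 in TP1 and TP3, inside the GEM-BCC range of 6.43 to 7.91, and at 4.59 and 4.61 in TP2 and TP4, far below it. Tgfbr1 was at 5.67 and 5.74 in TP1 and TP3 and at 3.43 and 2.57 in TP2 and TP4, against 5.20 to 6.51 in GEM-BCC. The same order held for Bmpr2 (6.68 and 7.13, then 4.3 and 4.89) and for Acvr2a (4.65 and 5.58, then 2.80 and 2.85). Over all 4 tumors neither Tgfbr1 (log2 fold change −1.28, SE 0.47, adjusted p = 0.0682) nor Bmpr1a (−0.89, SE 0.46, adjusted p = 0.179) passed. After GC correction Tgfbr1 passed (adjusted p = 0.00307), and so did Tgfbr3, which encodes the TGF-β co-receptor betaglycan and had the opposite sign (log2 fold change 0.94, adjusted p = 0.0361). Tgfbr3 was at 5.98, 6.10, 6.03 and 5.07 in TP1 to TP4 and at 4.21 to 5.83 in GEM-BCC. Acvr1b, a type I activin receptor gene, varied most within GEM-BCC among the receptors that did not pass, from 5.72 (GEM3) to 8.10 (GEM7), and Tp-BCC lay inside that range at 6.88 to 7.79. Tgfbr2, the type II TGF-β receptor gene, and the BMP and activin receptor genes Acvr1 and Acvr2b also overlapped between the models.

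**Figure D3:**
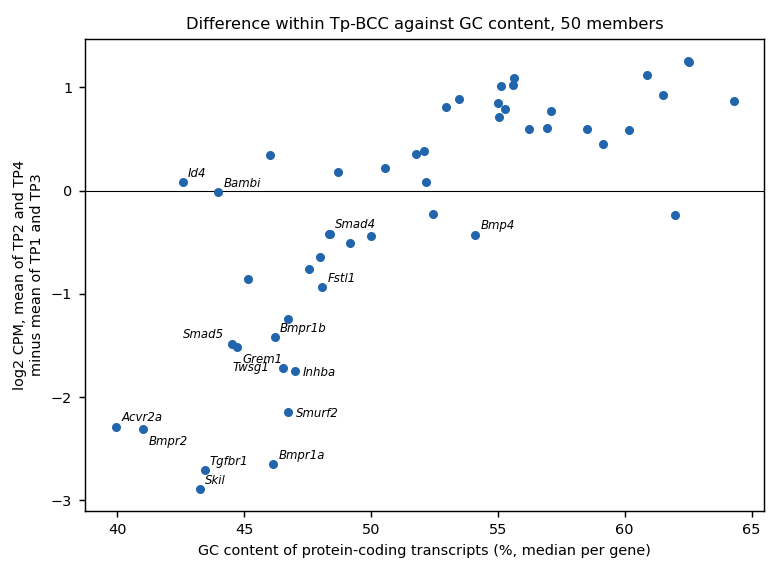
Difference in mean log2 CPM between TP2 and TP4 and TP1 and TP3 (y axis) against the GC content of protein-coding transcripts (x axis, %) for the 50 tested members, each a point. Most members of low GC content lie below 0 (Skil −2.89, Tgfbr1 −2.71, Bmpr1a −2.65) and most of high GC content above it. Smad4 (−0.42) and Bmp4 (−0.43) lie near 0.

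The difference between these pairs of Tp-BCC tumors ran along GC content among the members as it did across the table. Spearman's rho was 0.831 over the 50 members and 0.789 over 14272 genes with a GC value. Genes within a library share its depth and composition, so these are descriptions. TP2 and TP4 were lower by more than 1 log2 unit for 12 members (24%, against 26.8% of all genes) and higher by more than 1 for 6 (12%, against 13.3%). GC content ran from 39.9% to 64.3% over the set (median 51.2%). The receptor genes Acvr2a, Bmpr2, Tgfbr1 and Bmpr1a, and Skil, Smurf2, Twsg1, Smad2 and Smad5, lay below the median and were lower in TP2 and TP4 by more than 1 log2 unit.

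Of the 7 inhibitors inside the cell, only Skil passed the test. Skil encodes SnoN, a corepressor that binds Smads. Its log2 CPM was 4.95, 2.76, 5.28 and 1.69 in TP1 to TP4 and 5.67 to 6.41 (median 6.15) in GEM-BCC. All Tp-BCC tumors lay below all GEM-BCC tumors, TP3 by the smallest margin. On the log2 scale the difference was −1.82 (SE 0.49, adjusted p = 0.0184, edgeR), with −1.01 from TP1 and TP3 (adjusted p = 0.0124) and −3.82 from TP2 and TP4 (2.5e-05). The call was lost without TP2 alone (adjusted p = 0.0578).

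Bambi, a pseudoreceptor gene induced by the pathway, was at 3.44, 3.57, 3.22 and 3.06 in TP1 to TP4 and at 3.37 to 5.81 in GEM-BCC, with GEM3 highest. Its log2 fold change was −1.05 (SE 0.42, adjusted p = 0.0907). The ubiquitin ligase gene Smurf2 showed the split within Tp-BCC (6.07 and 5.92 in TP1 and TP3, 4.64 and 3.06 in TP2 and TP4, against 5.84 to 6.60 in GEM-BCC). It differed by −0.85 on the log2 scale (SE 0.39, adjusted p = 0.132) and passed after GC correction (0.0343). The corepressor gene Ski, the ubiquitin ligase gene Smurf1 and the inhibitory Smads Smad6 and Smad7, which block receptor signaling, overlapped between the models. Smad6 was at 2.43 to 3.85 log2 CPM in Tp-BCC and 2.21 to 3.58 in GEM-BCC.

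Extracellular antagonists and modulators were the role with most calls, 4 of 9 tested (44.4%, against 19.4% of all genes). Nog and Sostdc1 were higher and Fstl1 and Chrd lower in Tp-BCC. Nog encodes noggin, which binds BMPs and keeps them from their receptors. Its log2 CPM was 2.41, 2.77, 1.97 and 2.79 in TP1 to TP4 and −1.34 to 1.81 (median 0.73) in GEM-BCC. The tumors of the models did not overlap, with TP3 closest to GEM5. The log2 fold change was 1.74 (SE 0.47, adjusted p = 0.0187, edgeR), and the call was lost without TP2 (0.0707) or TP4 (0.0678), and with both left out (0.172).

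Sostdc1 encodes an antagonist of BMP and Wnt signals in skin and hair follicles. It was at a log2 CPM of 6.67, 7.12, 6.54 and 6.76 in TP1 to TP4, a narrow band above all GEM-BCC tumors. These spread from 2.61 (GEM6) to 6.44 (GEM2), with a median of 5.39. On the log2 scale the difference was 1.36 (SE 0.45, adjusted p = 0.046, edgeR), the closest of the 11 to the threshold: it was kept in 4 of 13 fits that left out 1 tumor, those without GEM2, GEM6, GEM7 or GEM8, and adjusted p reached 0.133 without TP2. It was also lost with TP2 and TP4 left out (0.222), with TP1 and TP3 left out (0.0503) and when scaled by library size only (0.0696). After GC correction the log2 fold change was 2.03 (adjusted p = 0.008).

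Fstl1, which encodes a secreted follistatin-like glycoprotein made largely by mesenchymal cells, was the antagonist of highest level per kb in both models (mean CPM per kb 197.7 in GEM-BCC and 70.4 in Tp-BCC). Its log2 CPM was 8.41, 8.05, 8.42 and 6.91 in TP1 to TP4. The GEM-BCC tumors lay in a tight range of 9.25 to 9.92 (median 9.54), above every Tp-BCC tumor. The log2 fold change was −1.49 (SE 0.26, adjusted p = 0.0013, edgeR), and it passed with each tumor left out in turn (adjusted p at most 0.00804). From TP1 and TP3 alone the log2 fold change was −1.139, and from TP2 and TP4 alone −1.955. Among the fibroblast markers, 4 of 12 rose (33.3%, against 11.1% of all genes) and 2 of 12 fell (16.7%, against 8.35%).

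Chrd, encoding the BMP antagonist chordin, was at 1.92, 2.33, 2.46 and 3.24 in TP1 to TP4 and at 3.15 to 5.21 (median 3.66) in GEM-BCC. TP4 lay within the GEM-BCC range. On the log2 scale the difference was −1.46 (SE 0.45, adjusted p = 0.0342, edgeR), and the call was lost without TP1 (0.0878), TP2 (0.0924) or TP3 (0.064), with TP2 and TP4 left out (0.0774) with TP1 and TP3 left out (0.125) and after a correction for transcript length (0.0696).

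Grem1, a BMP antagonist gene of stromal cells, had the second largest absolute fold change of all members and did not pass. It was at 1.70, 1.00, 2.11 and −0.22 in TP1 to TP4 and spread from −0.71 (GEM3) to 6.74 (GEM4) in GEM-BCC, a range that contained all Tp-BCC tumors. The log2 fold change was −3.34 (SE 1.29, adjusted p = 0.0807, edgeR). Of the alternatives, only DESeq2 put Grem1 past the test (adjusted p = 0.0149). The BMP modulator Bmper behaved likewise, with −0.10 to 1.57 in Tp-BCC and −0.71 to 4.29 in GEM-BCC (log2 fold change −1.68, SE 0.78, adjusted p = 0.14). Fst, which encodes the activin-binding protein follistatin, was at 1.89 to 2.81 in Tp-BCC and −1.03 to 4.69 in GEM-BCC. Fstl3, another activin-binding protein gene, and Twsg1, whose product modulates BMP binding by chordin, also overlapped between the models.

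None of the 4 latent TGF-β binding protein genes, whose products tether latent TGF-β in the matrix, passed the test (1 of 4 had an unadjusted p under 0.05). Ltbp3 had a mean CPM per kb of 393.7 in GEM-BCC and 250.9 in Tp-BCC by its median transcript length, and of 105.2 and 67.0 by its longest. Its log2 CPM was 7.81, 8.60, 7.99 and 9.04 in TP1 to TP4 and 8.52 to 9.81 in GEM-BCC, which gave a log2 difference of −0.65 (SE 0.29, adjusted p = 0.12). It passed after GC correction (−0.99, adjusted p = 0.00285) and with TP2 and TP4 left out (−1.19, adjusted p = 0.033). Ltbp2 differed by −0.59 on the log2 scale (SE 0.48, adjusted p = 0.402) and ranged from 3.67 to 7.22 log2 CPM in GEM-BCC. Ltbp1 had the widest range of this role in GEM-BCC, from 1.13 in GEM3 to 7.83 in GEM7, with 5.80 to 6.97 in Tp-BCC. Ltbp4 overlapped between the models, at 8.12 to 9.54 in Tp-BCC and 7.96 to 8.94 in GEM-BCC.

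Of the 6 receptor and common Smads, 2 fell and 4 did not pass. Smad4, the partner shared by the TGF-β and BMP branches, was at a log2 CPM of 5.93, 5.76, 5.75 and 5.08 in TP1 to TP4. It ranged from 7.0 to 7.59 (median 7.39) in GEM-BCC. The gap between the models, from 5.93 in TP1 to 7.0 in GEM3, was wider than the spread within either. Mean CPM was 50.6 ± 11.7 (SD, n = 4) against 162.9 ± 28.9 (SD, n = 9). On the log2 scale the difference was −1.69 (SE 0.22, adjusted p = 0.000114, edgeR), with −1.51 from TP1 and TP3 and −1.89 from TP2 and TP4, and −1.41 after GC correction. It passed with each tumor left out in turn (adjusted p at most 0.000819).

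Smad5, a Smad of the BMP branch, was at 6.55, 5.79, 6.52 and 4.31 in TP1 to TP4 and at 6.85 to 7.40 (median 7.10) in GEM-BCC. The models did not overlap, with TP1 and TP3 nearest to GEM5. The log2 fold change was −1.11 (SE 0.32, adjusted p = 0.0235, edgeR). It was −0.61 with TP2 and TP4 left out, which did not pass (0.0684), and the call was also lost without TP2 alone (0.0746).

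Smad2 and Smad3, the Smads of the TGF-β and activin branch, did not pass. Smad2 was at 6.20, 5.32, 6.13 and 4.50 in TP1 to TP4 and at 5.82 to 6.62 in GEM-BCC (log2 fold change −0.58, SE 0.27, adjusted p = 0.144). Smad3 was at 6.07, 6.84, 5.89 and 6.54 in TP1 to TP4 and at 5.09 to 6.18 in GEM-BCC (0.39, SE 0.22, adjusted p = 0.225). Smad1 had the smallest SD of all members within GEM-BCC, with 5.53 to 6.09 log2 CPM, and 5.43 to 6.02 in Tp-BCC. Smad9, the remaining BMP Smad, was hardly expressed, with counts of 3 to 18 among GEM-BCC tumors and 5 to 11 among Tp-BCC tumors.

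The Id genes encode inhibitors of basic helix-loop-helix transcription factors and are classical BMP targets. Id2 passed the test, with a log2 CPM of 2.49, 0.96, 2.05 and 1.87 in TP1 to TP4 and 2.64 to 3.69 (median 3.20) in GEM-BCC. All Tp-BCC tumors lay below all GEM-BCC tumors, TP1 nearest to GEM7. On the log2 scale the difference was −1.22 (SE 0.31, adjusted p = 0.0139, edgeR). The call held with each tumor left out in turn (adjusted p at most 0.0477) and was lost after GC correction (−0.71, adjusted p = 0.0984) and with TP2 and TP4 left out (−0.87, adjusted p = 0.101).

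The other Id genes did not pass. Id1 was the member of this role with the highest level per kb in both models (mean CPM per kb 53.7 and 49.2), at 5.17 to 6.28 log2 CPM in Tp-BCC and 4.97 to 7.03 in GEM-BCC. Id3 was at 4.60 to 5.95 and 3.42 to 5.87 (log2 fold change 0.51, SE 0.38, adjusted p = 0.362), and Id4 at 5.09 to 5.32 and 4.51 to 6.39 (−0.42, SE 0.31, adjusted p = 0.354). The direction of Id4 turned to 0.34 after GC correction.

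**Figure D4:**
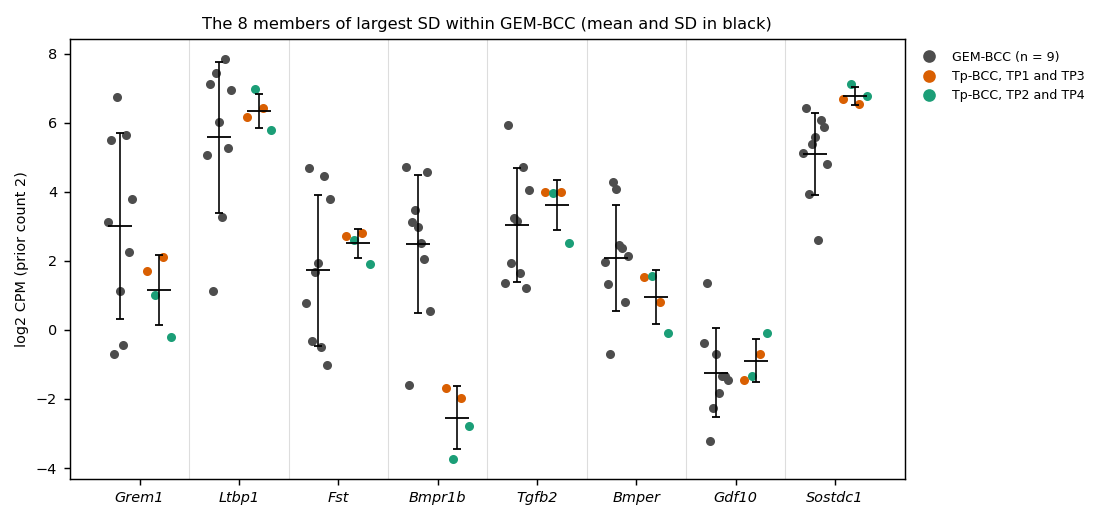
Level (log2 CPM, y axis) of the 8 members with the largest SD among GEM-BCC tumors, with gray points for GEM-BCC and colored points for Tp-BCC, and the mean and SD of each model in black. Grem1 spans −0.71 to 6.74 in GEM-BCC, and for all but Bmpr1b and Sostdc1 the Tp-BCC tumors lie inside the GEM-BCC range.

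For a few members the GEM-BCC tumors spread widely among themselves. Grem1, Fst, Ltbp1 and Tgfb2 were each higher in GEM2, GEM7 and GEM9 than in GEM3, GEM6 and GEM8. Grem1 was at 5.51, 5.66 and 3.78 in GEM2, GEM7 and GEM9 and at −0.71, −0.45 and 2.24 in GEM3, GEM6 and GEM8. For Fst the same tumors were at 4.69, 4.46 and 3.79 and at −0.32, −0.51 and −1.03. Ltbp1 was at 7.13, 7.83 and 6.95 and at 1.13, 3.28 and 5.28. These 4 genes were singled out after their values were seen, so no test is given. GEM4 was also high for Grem1 (6.74) and Ltbp1 (7.44), and was at 1.67 for Fst. For these 4 genes the Tp-BCC tumors lay closer together, with a Grem1 range of −0.22 to 2.11 and an Ltbp1 range of 5.80 to 6.97. Because the genes were picked for a wide spread in GEM-BCC, a narrower range in fewer tumors of 1 line was nearly fixed in advance. It did not hold for all members: the SD of Skil was 1.73 in Tp-BCC and 0.23 in GEM-BCC.

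Tumors from the same mouse also differed, within the range over all pairs of GEM-BCC tumors. GEM2 and GEM3 differed by more than 1 log2 unit for 22 of 50 members, most for Grem1 (6.22). GEM7 and GEM8 did so for 15 of 50, most for Fst (5.49). The median absolute difference over members was 0.764 for GEM2 and GEM3 and 0.456 for GEM7 and GEM8, against 0.226 to 1.01 (median 0.502) over all 36 pairs of GEM-BCC tumors. With counts summed per mouse, all 11 members above passed again and Bmp7 was added (adjusted p = 0.0478).

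**Figure D5:**
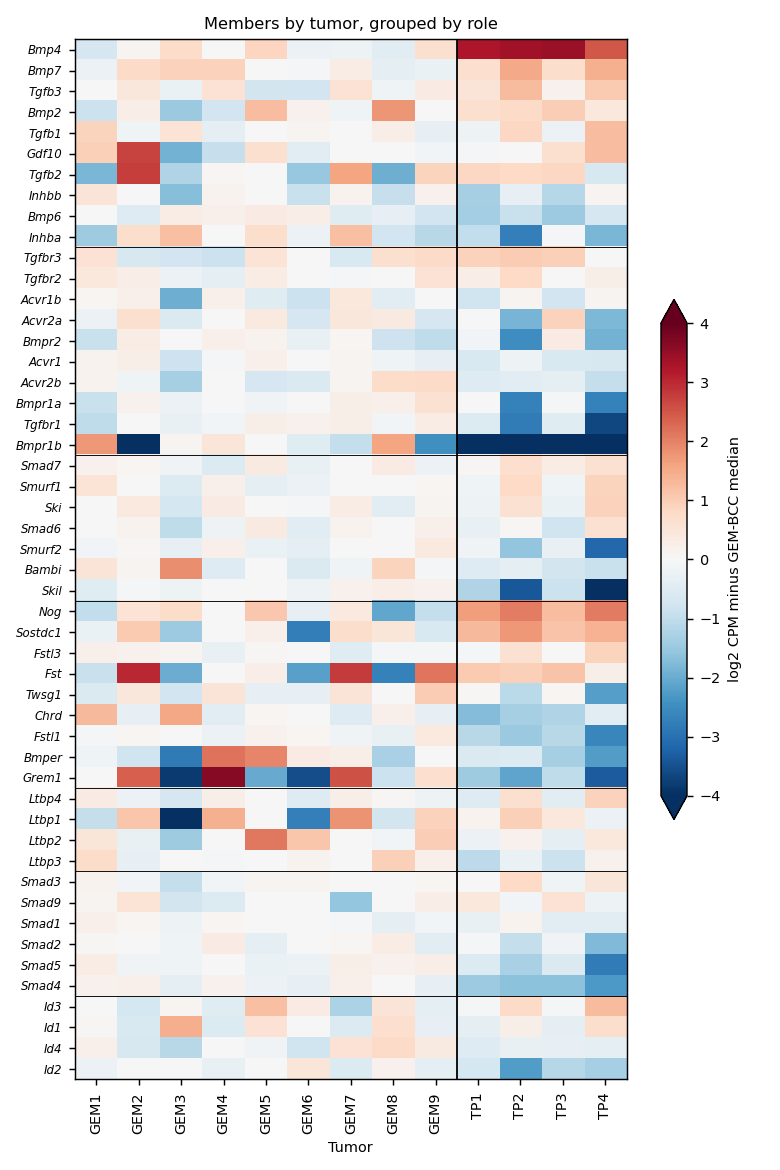
Level of the 50 tested members (y axis, lines divide the roles) in each tumor (x axis), as log2 CPM minus the median of GEM-BCC, red above it and blue below, with colors ending at −4 and 4. Bmp4 is red and Bmpr1b and Smad4 blue in all 4 Tp-BCC tumors, and TP2 and TP4 are bluer than TP1 and TP3 for Bmpr1a, Tgfbr1, Smurf2 and Skil.

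Further genes of the pathway were taken from a list of 79 ligands, receptors, activators, antagonists, regulators and targets outside the 51. Of these, 62 were tested and 14 passed (22.6%, against 19.4% of all genes), 8 higher and 6 lower in Tp-BCC. Among activators and matrix partners, Fbn2, encoding a fibrillin that anchors latent complexes, rose to 8.79, 9.52, 9.06 and 8.75 log2 CPM in TP1 to TP4, against 5.65 to 7.31 in GEM-BCC (log2 fold change 2.38, SE 0.26, adjusted p = 1.76e-05, edgeR). Thbs1, encoding thrombospondin-1, an activator of latent TGF-β, fell (log2 fold change −2.12, SE 0.36, adjusted p = 0.000951), with 4.52 to 5.58 in Tp-BCC against 5.96 to 8.11. Itgb8, an integrin subunit that also releases TGF-β, rose by 2.00 on the log2 scale (SE 0.63, adjusted p = 0.0382), with overlapping tumors. It was at 4.53 and 5.52 in TP1 and TP3, above the GEM-BCC range of −0.86 to 3.56. TP2 and TP4 lay inside that range, at 1.72 and 3.24.

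Eng, the co-receptor endoglin of endothelial cells, rose by 2.01 (SE 0.27, adjusted p = 0.000133), with 7.42 to 8.71 in Tp-BCC and 5.47 to 6.47 in GEM-BCC. In the same tumors 4 of 8 endothelial markers rose (50%, against 11.1% of all genes). The antagonist gene Sost rose by 1.77 (SE 0.32, adjusted p = 0.00154). Zfyve9, encoding the Smad anchor SARA, fell by 1.67 (SE 0.49, adjusted p = 0.0257), with overlapping tumors. In TP1 and TP3 it was at 5.25 and 5.13, close to the lowest GEM-BCC tumor (5.16). TP2 and TP4 were lower, at 3.68 and 2.17. Nrep fell by 1.73 (SE 0.42, adjusted p = 0.0109).

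Target genes of the branches did not move as 1 group. Tgfbi, a matrix gene named for its induction by TGF-β, was at 3.68, 3.80, 3.82 and 4.45 in TP1 to TP4 and at 4.50 to 8.60 (median 6.71) in GEM-BCC, without overlap. It fell by 3.23 (SE 0.64, adjusted p = 0.00313, edgeR). Cdkn1a, encoding the cell cycle inhibitor p21, a target of TGF-β and of p53, fell by 1.56 (SE 0.37, adjusted p = 0.0101), whereas Hey1, a target of BMP and Notch signals, rose by 1.55 (SE 0.24, adjusted p = 0.000435). Msx2, a BMP target in skin, was named after its values were seen, as its mean level was low. No Tp-BCC library held more than 3 counts of it, and GEM-BCC tumors held 25 (GEM2) to 251 (GEM6). Computed against 3 counts per library, Msx2 was at least 27.4-fold lower than the mean of GEM-BCC. That bound is on the mean and does not hold against each GEM-BCC tumor.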

How the data were processed

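Bulk poly(A) RNA of 13 tumors was sequenced as paired-end reads. According to the submitters' processing notes and the methods, reads were aligned to mouse GRCm39 transcripts with Bowtie2 2.3.4.3 and quantified with RSEM 1.3.1 in a strand-specific mode. The authors deposited RSEM expected counts per gene symbol, neither rounded nor normalized, in which a read shared by several genes is divided among them. Groups came from the library names. How missing values arose is not given in the sources used here.

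Expected counts were rounded in R 4.3.3, and edgeR 4.0.16 was run on the 14390 genes (of 16687 with a value in all 13 tumors) that reached 10 counts in 4 or more of them (TMM, quasi-likelihood F test, robust dispersions, 2-sided), with Benjamini-Hochberg adjustment over all tested genes. Each SE was obtained as the absolute log2 fold change over the square root of F, and a prior count of 2 was used for log2 CPM. Total counts of 15388027 to 32629102 limit genes of few counts, and at 3 or fewer counts in every tumor of a model a bound replaces the fold. Tested on counts simulated for this comparison over 14258 genes, the fit recovered 9.28% of 97 genes changed by 1 log2 unit and 70.7% of 99 changed by 2, with 4 false calls. The simulated counts held far fewer changed genes than the 19.4% past the test here. They also had no trend on GC content and no batch, so these rates do not carry over directly to the data.

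GC content and length were medians over protein-coding transcripts of GENCODE vM21 (GRCm38), matched by symbol to all 50 tested members. GC and length corrections removed each tumor's lowess trend (span 0.3). Of 100-base words in the members' transcripts, 3.34% for Tgfbr3 and 0.0741% for Grem1 were shared with another gene. No protein sequences were used here.

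Members and lists were chosen with earlier results of these data known. Members past the test are given in full, the others by the 2 largest fold changes and the 2 largest SDs in GEM-BCC per role. Other pathway genes are those past the test with the 10 largest fold changes and a mean log2 CPM of at least 1. The paper's methods use DESeq2 with shrunken folds, and DESeq2 1.42.0 without shrinkage was an alternative, beside other scalings, filters, dispersions and thresholds, sums per mouse, missing values set to 0, each tumor left out and a replicate block.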

Additional observations from a re-analysis of the deposited data

Results flagged for a closer look

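In 5 of 100 groups of tumors examined, 1 tumor lay far from the others of its model by Dixon's test, where chance gives about 1 in 20. TP4 was low for Tgfb2, with a log2 CPM of 2.52 against 3.95 to 4.00 in the other Tp-BCC tumors, and for Tgfbr3, with 5.07 against 5.98 to 6.10. TP2 was high for Acvr1, a type I receptor gene of the BMP and activin branches, with 5.43 against 4.99 to 5.04. Among GEM-BCC tumors, GEM1 was low for Tgfbr1 (5.20 against 5.93 to 6.51), and GEM3 was low for Smad3 (5.09 against 5.94 to 6.18). GEM1 was also the GEM-BCC tumor whose log2 CPM followed GC content most (Spearman's rho across genes 0.174), and TP4 was the one of highest rho among all tumors (0.351). The part of GC content in these values was not tested.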

How the results depend on the processing

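Bmp4 passed the test under every alternative run, and Bmpr1b under every one in which it was tested (the stricter filter of 10 counts in at least 10 tumors removed it). The main fit gave 11 members past the test (3 higher, 8 lower), beside 19.4% of all genes. DESeq2 gave 17 (13 lower), beside 26% of all genes. These were the 11 of the main fit and Bambi, Bmp7, Bmper, Grem1, Inhba and Tgfbr1. The length correction gave 12 (5 higher), beside 24.1%. Tumors left out in turn gave 6 (without TP2) to 12, with 1 (without TP2 or TP4) to 4 higher and 5 to 9 lower. The share of all genes in those fits ran from 10.8% (without TP2) to 21.1% (without GEM3). The pairs of Tp-BCC tumors were left out after the data had been seen. Without TP2 and TP4, 7 members (1 higher) passed, beside 10.4% of all genes, and without TP1 and TP3, 24 (10 higher, 14 lower), beside 42.9%. Members also past the fold threshold numbered 2, against 1 with the stricter filter, 10 at a log2 threshold of 1, 2 to 4 (without TP3) with tumors left out, and 8 without TP1 and TP3. Of the other pathway genes, 14 passed, against 30 without TP1 and TP3 and 11 to 17 with tumors left out. Shared tumor numbers do not pair the samples, since they number tumors of different mice within each model. The deviations of same-numbered tumors correlated at −0.381, −0.122, −0.101 and −0.179, values that cannot by themselves show whether tumors are paired. In a replicate block on the number, GEM5 to GEM9 have no Tp-BCC partner and do not enter the contrast. That block left 2 members (Bmp4 and Bmpr1b, 1 in each direction), 2 other pathway genes and 178 of all genes (1.24%) past the test. The block with GC correction left 5 members (3 lower) and 7 other pathway genes, beside 3.06% of all genes. Among the genes named with a fold change, directions turned only for members that had not passed: Ltbp2 to 0.32 with the block and 0.0691 with block and GC correction, Smad3 to −0.0151 and Id3 to −0.16 without TP2 and TP4, and Id4 to 0.34 with GC correction, 0.000705 with the block and 0.50 with both. Mean CPM per kb by the longest transcript, an alternative chosen after seeing the data, kept the orders given except for Ltbp3, which is not ranked. Except where fewer tumors or genes entered, the cause was not tested. The Tp-BCC libraries, at 15388027 to 17494912 counts, leave the size of the Bmpr1b and Msx2 changes imprecise.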
